A study of Mus musculus with 6 samples.

Results

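The CXC chemokine ligand genes comprised Cxcl1, Cxcl2, Cxcl3, Cxcl9, Cxcl10, Cxcl16, Pf4 and Ppbp. They were chosen by family, with earlier results of these data known. They are 8 of the 56748 gene IDs in the count files, and all 8 were among the 21849 genes tested, which had a name and 50 or more counts summed over the 6 libraries. Expression was compared between bone marrow-derived dendritic cells (BMDCs) of WT mice and of global Nfkb2-/- mice, with 3 libraries of polyadenylated RNA per genotype from independent biological replicates. In both genotypes, bone marrow cells were grown for 9 days, first for 5 days with 20 ng/mL GM-CSF and then for 4 days with 20 ng/mL GM-CSF and 10 ng/mL IL-4. The cells received no stimulus. In the knockout Nfkb2 was missing from all cells of the donor mice and not from dendritic cells alone, and the age and sex of the mice are not given in the sources used here. The study names C57/BL6 donors for WT BMDCs in a flow cytometry assay, and no strain is stated for the sequenced libraries.

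Chemokines are small secreted proteins that steer migrating leukocytes through G protein-coupled receptors, and those of the CXC type carry a single residue between their first pair of cysteines. Cxcl1, Cxcl2, Cxcl3 and the product of Ppbp attract neutrophils through Cxcr2, whereas Cxcl9 and Cxcl10 attract activated T cells and NK cells through Cxcr3 and are known as interferon-induced. Cxcl16 is made as a transmembrane protein with the chemokine domain outside the cell and is bound by Cxcr6. Nfkb2 encodes p100, the precursor of the p52 subunit of the noncanonical NF-κB pathway, and several CXC ligands are known targets of NF-κB in inflamed tissue.

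In the mouse genome 7 of the 8 genes lie on chromosome 5 (GRCm38). Ppbp, Pf4, Cxcl3, Cxcl1 and Cxcl2 belong to a group that spans 147 kb, from chr5:90759360 to 90905938, together with Cxcl5 and Cxcl15. Cxcl9 and Cxcl10 are next to each other with Cxcl11 in a group of 44.1 kb, from chr5:92321347 to 92365485. Cxcl16 stands alone on the minus strand of chromosome 11, at 70453983 to 70459984.

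The upstream stretches of Cxcl1, Cxcl2, Cxcl3 and Cxcl10 are printed here, since these were the members in which a search of the RefSeq promoters (GRCm38.p6, 250 bases before to 50 bases after the start site, both strands) found the κB consensus, the DNA motif bound by NF-κB dimers. Capitals mark the bases covered by a κB match and, in Cxcl10, also the core of the interferon-stimulated response element (ISRE), spelled GAAA, any 2 bases, GAAA. Positions are counted from the start site at 0, with negative values upstream. The first 3 stretches run from -130 to -30 on the plus strand, at chr5:90891115-90891215 for Cxcl1, chr5:90903769-90903869 for Cxcl2 and chr5:90785971-90786071 for Cxcl3. That of Cxcl10 runs from -230 to -60 on the minus strand, at chr5:92348949-92349119.
Cxcl1: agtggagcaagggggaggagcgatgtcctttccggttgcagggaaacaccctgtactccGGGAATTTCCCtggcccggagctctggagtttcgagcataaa
Cxcl2: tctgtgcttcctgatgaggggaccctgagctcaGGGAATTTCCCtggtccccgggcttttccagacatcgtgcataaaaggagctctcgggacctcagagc
Cxcl3: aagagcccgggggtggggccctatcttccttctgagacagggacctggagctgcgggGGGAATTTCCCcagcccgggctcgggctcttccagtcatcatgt
Cxcl10: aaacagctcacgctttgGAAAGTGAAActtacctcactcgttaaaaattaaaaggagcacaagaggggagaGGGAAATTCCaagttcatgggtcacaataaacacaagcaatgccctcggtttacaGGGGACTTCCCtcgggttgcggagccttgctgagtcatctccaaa

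Cxcl1, Cxcl2 and Cxcl3 held the same 11 bases, GGGAATTTCCC, which were also in 14 of all 32851 promoters searched (0.0426%, these 3 included). In Cxcl10 the first capitals are the ISRE core, which begins at -213, and the κB matches begin at -159, -104 and -103, the last 2 of which overlap. The κB consensus was present in 4 of the 7 members with a promoter sequence and in 8.46% of all promoters, and the ISRE core in 1 of the 7 and in 3.44%. A match is a description of the letters and does not show that a factor was bound in these cells.

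**Figure D1:**
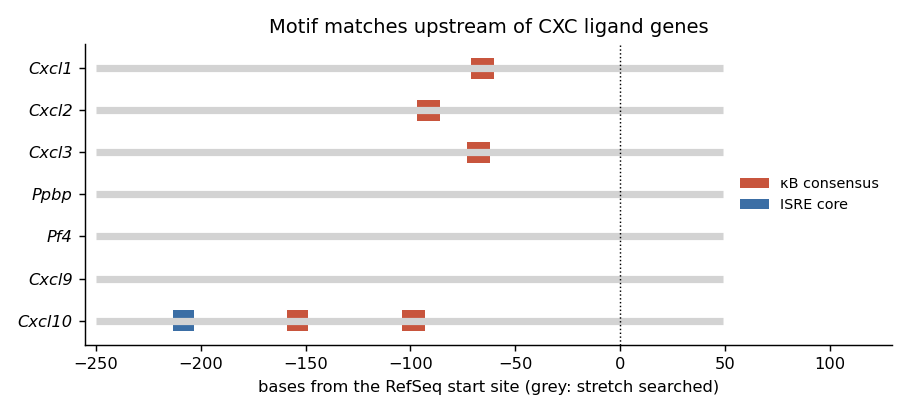
Positions of κB consensus and ISRE core matches in the 7 CXC ligand promoters with a sequence, in bases from the RefSeq start site; the grey bars are the stretches searched. Matches lay between -213 and -61 in Cxcl1, Cxcl2, Cxcl3 and Cxcl10, and there was none in Ppbp, Pf4 and Cxcl9.

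Total counts ranged from 29863927 to 55623068 per library, and 1 count was worth between 0.0187 and 0.0344 CPM, the counts scaled to a common library size with edgeR's TMM method. The genotype labels were checked against the targeted gene. Nfkb2 was at 215, 154 and 355 CPM in WT replicates 1, 2 and 3 and at 44.8, 32.3 and 32.6 CPM in Nfkb2-/- replicates 1, 2 and 3, with a log2 fold change of -2.72 ± 0.33 (SE) and an adjusted p of 0.0307 in edgeR's quasi-likelihood test. All 3 Nfkb2-/- libraries were thus below all WT libraries. The direction held under all 14 alternatives, with adjusted p-values up to 0.163, and Nfkb2 passed the threshold in 9 of them. Nfkb2-/- replicate 1 stood apart from the other 5 libraries. It had counts on 47952 gene IDs, against 27692 to 33841 in the others, and its score on the first principal component was 160, against -56.3 to -9.72. Of 8 dendritic cell markers, those of antigen presentation were abundant in every library: Cd74, the invariant chain of MHC class II, lay between 1870 and 3691 CPM, and H2-Aa between 1131 and 2058 CPM. Itgax, which encodes CD11c, was at 160, 277 and 123 CPM in WT and at 745, 769 and 716 CPM in Nfkb2-/- BMDCs (log2 fold change 1.99 ± 0.30, edgeR adjusted p = 0.0414). It was the only marker of this list to pass, and no gene passed without WT replicate 1 or without any single Nfkb2-/- replicate. Of the 8 markers, 5 had a log2 fold change above 0 and 3 below 0. The markers named next were chosen after their values were seen. Ciita was also higher in all knockout libraries (log2 fold change 0.50 ± 0.20, edgeR adjusted p = 0.254). Others were scarcer or went the other way. Flt3, a growth factor receptor of dendritic cell progenitors, lay between 12.1 and 17.0 CPM, and Cd209a, a lectin, between 3.51 and 26.9 CPM. Zbtb46, a transcription factor of classical dendritic cells, was lower in all knockout libraries (log2 fold change -0.54 ± 0.18, edgeR adjusted p = 0.192).

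Which CXC ligands do unstimulated BMDCs express? Cxcl16 was by far the leading transcript. Per kilobase of exon it averaged 106 CPM over the 6 libraries, with a lowest library of 61.3. No library exceeded 5.34 CPM per kilobase for Ppbp, which was next with a mean of 3.34, followed by Cxcl2 with 3.01, Pf4 with 2.65 and Cxcl3 with 1.32. Cxcl10 averaged 0.997, Cxcl1 0.370 and Cxcl9 0.329 CPM per kilobase. Apart from the step below Cxcl16, neighbours in this order overlapped over the libraries. Without the scaling to length, Cxcl2 and Cxcl3 moved ahead of Ppbp. Of the summed per-length level of the 8 genes, Cxcl16 made up 92.9%, 84.0% and 99.0% in WT and 83.3%, 79.4% and 83.3% in Nfkb2-/- replicates 1, 2 and 3. The other 7 genes together were at 12.4, 16.7 and 2 CPM per kilobase in WT and 12.3, 16.2 and 12.5 in Nfkb2-/- BMDCs, so that WT replicate 3 held the lowest level of these ligands and the highest share of Cxcl16.

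**Figure D2:**
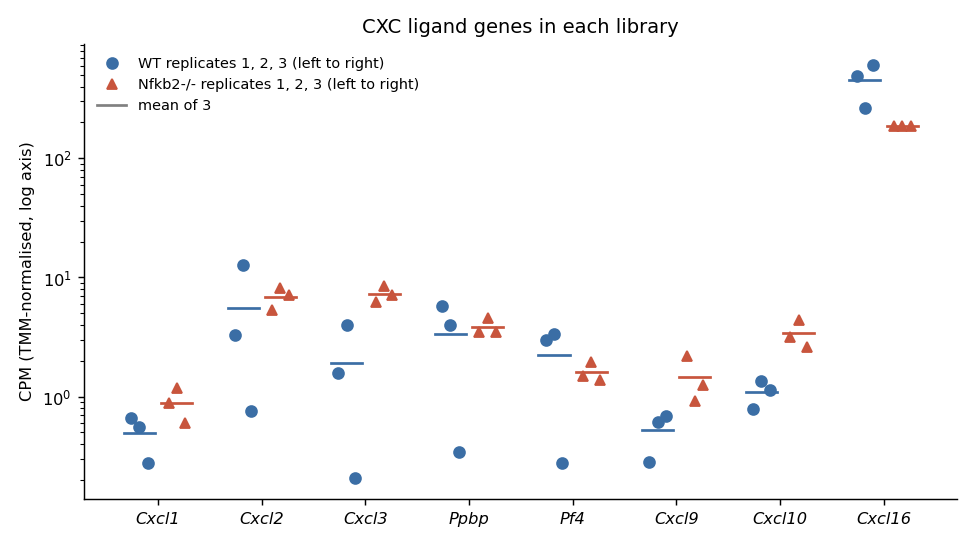
TMM-normalised CPM of the 8 CXC ligand genes in each library on a log axis, with WT as circles, Nfkb2-/- as triangles and horizontal lines at the mean of 3 libraries. Cxcl16 lies between 185 and 611 CPM, while the other 7 genes reach at most 12.6 CPM; the genotypes do not overlap in Cxcl3, Cxcl9, Cxcl10 and Cxcl16.

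In the comparison of Nfkb2-/- with WT BMDCs, no CXC ligand passed the threshold of an adjusted p-value under 0.05 with a fold change over 1.2 (0 of 8, against 1.14% of all genes tested, or 0.453% higher and 0.682% lower in the knockout). Cxcl16 was lower in Nfkb2-/- BMDCs, and Cxcl3, Cxcl9 and Cxcl10 were higher, without overlap between the genotypes' libraries. Such separation was found in 24.7% of all genes tested, in 12.7% toward higher and in 12.0% toward lower levels in the knockout. The same 4 members had an unadjusted p under 0.05, as had 17.1% of all genes. With DESeq2, Cxcl10 and Cxcl16 passed, 2 of 8 against 10.7% of the genes to which it gave an adjusted p-value. The median log2 fold change of the 8 was 0.56, with 6 above and 2 below 0, against 0.08 over all genes tested. In these bulk cultures, a lower number of cells of a type and less RNA per cell cannot be told apart.

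Cxcl16, the ligand of Cxcr6 and also a scavenger receptor for oxidised lipoprotein, was at 489, 263 and 611 CPM in WT replicates 1, 2 and 3. In Nfkb2-/- replicates 1, 2 and 3 it was at 185, 188 and 189 CPM. The knockout libraries were nearly alike, with an SD of 1.85 CPM against 176 CPM in WT, and WT replicate 2 lay closest to them. The log2 fold change was -1.28 ± 0.29, or 2.43-fold lower, with an edgeR adjusted p of 0.0929. DESeq2 gave an adjusted p of 0.00142. Without WT replicate 2, edgeR gave a log2 fold change of -1.55 with an adjusted p of 0.00906. That fit called 1248 genes, against 248 with all libraries. With any other library left out, Cxcl16 did not pass (edgeR adjusted p between 0.131 and 0.315). An exact permutation test gave p = 0.1 (two-sided, n = 3 per genotype), the smallest that 3 against 3 libraries allow, here and for Cxcl3, Cxcl9 and Cxcl10. Cxcl16 overlaps Zmynd15 on the opposite strand by 552 exonic bases, but Zmynd15 reached at most 709 counts in a library, against 5713 to 20599 for Cxcl16.

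Among the WT libraries Cxcl16 had the same order as the summed mature dendritic cell markers, though not as each of them. The summed level of 8 such markers, of which Ccl22, a chemokine of mature dendritic cells, was the most abundant, was 11570, 8764 and 16680 CPM in WT and 8860, 8805 and 8287 CPM in Nfkb2-/- BMDCs, and none of the 8 was at 0 in all libraries. None of the 8 was differentially expressed, with Fscn1, the actin-bundling protein fascin, at 1378, 719 and 1853 CPM in WT and 479, 416 and 515 CPM in the knockout (edgeR adjusted p = 0.0902). Ccr7, the receptor that guides mature dendritic cells to lymph nodes, was at 1149, 640 and 1897 CPM in WT and 673, 611 and 596 CPM in the knockout. WT replicate 2 was the WT library with the least Cxcl16, Fscn1 and Ccr7, whereas Socs2, a cytokine signalling inhibitor, and the costimulatory genes Cd80 and Cd86 were lowest in WT replicate 1. Of the 8 markers, 3 had a log2 fold change above 0, and Cd86, which like Cd80 was chosen after its values were seen, was higher in all knockout libraries (log2 fold change 0.58 ± 0.24, edgeR adjusted p = 0.284). Relative to the summed mature markers, Cxcl16 was 42.2, 30.1 and 36.6 per 1000 in WT and 20.9, 21.4 and 22.8 per 1000 in Nfkb2-/- BMDCs. On this scale, which was chosen after the values were seen, the mean log2 ratio was 0.73 units lower in the knockout (-0.73), and the genotypes did not overlap. Relative to the summed macrophage markers, Cxcl16 was 458, 216 and 3440 per 1000 in WT and 292, 267 and 222 per 1000 in the knockout. There the genotypes overlapped, with a mean log2 difference of -1.43. Among the 10644 genes tested that averaged 5 CPM or more, those whose log2 CPM over the 6 libraries was most like that of Cxcl16 were Gpc1, a cell-surface heparan sulfate proteoglycan, Mylip, a ubiquitin ligase of the LDL receptor, and Cdkal1, a tRNA-modifying enzyme. Their likeness is a description over 6 libraries that include both genotypes, and none of the 3 was differentially expressed (adjusted p between 0.091 and 0.0943).

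Of the proteases known to shed CXCL16 from the cell surface, Adam10 was at 230, 257 and 218 CPM in WT and at 191, 285 and 250 CPM in Nfkb2-/- BMDCs, a log2 difference of 0.04 ± 0.18. Adam17 lay between 98.3 and 113 CPM in WT and between 83.5 and 115 CPM in the knockout, a log2 difference of -0.04 ± 0.16. The genotypes overlapped in both genes, and neither passed the test (edgeR adjusted p = 0.928 and 0.926). Cxcr6, the CXCL16 receptor, was at 8.42, 10.8 and 13.5 CPM in WT and at 14.9, 17.6 and 19.3 CPM in Nfkb2-/- BMDCs. All 3 knockout libraries were above the WT libraries, opposite in direction to the ligand, with a log2 fold change of 0.67 ± 0.22 that did not pass (edgeR adjusted p = 0.183).

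Of the neutrophil attractants Cxcl1, Cxcl2 and Cxcl3, which share the κB match printed above, only Cxcl3 had no overlap between the genotypes, and differences among the 3 genes were not tested. Cxcl3 was at 1.57, 3.97 and 0.206 CPM in WT, where the last value was 6 counts, and at 6.20, 8.54 and 7.15 CPM in Nfkb2-/- replicates 1, 2 and 3. Every knockout library was above every WT library, and the SD was 1.17 CPM in the knockout and 1.91 CPM in WT. The log2 fold change was 1.92 ± 0.77, or 3.80-fold higher, with an edgeR adjusted p of 0.262. DESeq2 gave an adjusted p of 0.0904. The value was 1.41 without WT replicate 3, the library lowest in Cxcl3, and 2.99 without WT replicate 2, the highest of WT.

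Cxcl2 was at 3.30, 12.6 and 0.757 CPM in WT and at 5.35, 8.14 and 7.15 CPM in Nfkb2-/- BMDCs. The 3 WT values enclosed all 3 knockout values, and the log2 fold change of 0.30 ± 0.81 (edgeR adjusted p = 0.880) was smaller than its error. Its sign depended on WT replicate 3, since without that library it was -0.20, while without WT replicate 2 it was 1.74. Cxcl2 and Cxcl3 share exon sequence, and 5.84% of the 50-base windows of Cxcl2 were also found in Cxcl3. Of the windows of Cxcl3, 4.24% were also found in another gene, in Cxcl2 or in unrelated genes. Reads from these windows may have been assigned to another gene or dropped. Cxcl1 was near the lower end of the family, at 0.664, 0.554 and 0.275 CPM in WT and at 0.886, 1.19 and 0.599 CPM in the knockout, between 8 and 36 counts per library. Its genotypes overlapped (log2 fold change 0.82 ± 0.57, edgeR adjusted p = 0.514).

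Within WT, Cxcl2 and Cxcl3 were high in replicate 2 and low in replicate 3, as was Ccl3 with 23.0, 78.2 and 2.62 CPM. Ccl3 was at 46.1, 64.1 and 60.4 CPM in Nfkb2-/- BMDCs, and Tnf was at 7.14, 13.0 and 2.13 CPM in WT and at 28.1, 26.9 and 28.7 CPM in the knockout. These 2 genes, which encode a CC chemokine and a cytokine induced through canonical NF-κB, were chosen after their values were seen, and neither passed the test (edgeR adjusted p = 0.728 for Ccl3 and 0.143 for Tnf). Of the list of 12 inflammatory genes induced through canonical NF-κB to which they belong, none was differentially expressed, and the median log2 fold change was -0.03, with 6 above and 6 below 0. The most abundant of them did not share the pattern of Cxcl3. Nfkbia, the inhibitor IκBα, was at 279, 265 and 501 CPM in WT and 172, 175 and 172 CPM in the knockout (log2 fold change -1.01 ± 0.26, edgeR adjusted p = 0.117). Zfp36, an RNA-binding protein that destabilises cytokine mRNA, and Tnfaip3, the ubiquitin-editing protein A20, were also lower in all knockout libraries, with log2 fold changes of -0.63 and -0.66 that did not pass. Icam1, an adhesion molecule, overlapped between the genotypes.

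The genes most like Cxcl3 over the 6 libraries, again as a description, were Plau, which encodes urokinase, Unc119b, a carrier of lipid-modified proteins, and B430306N03Rik. Plau was at 12.0, 28.2 and 2.20 CPM in WT and at 43.2, 52.6 and 46.2 CPM in Nfkb2-/- BMDCs, a log2 fold change of 1.74 that did not pass (edgeR adjusted p = 0.283). Those most like Cxcl2 were Mcmdc2, Rhoh and Susd6, of which Rhoh, a small GTPase of blood cells, was at 10.6, 25.6 and 3.89 CPM in WT and at 14.5, 20.6 and 19.7 CPM in the knockout. As with Cxcl2, the WT libraries of Rhoh enclosed those of the knockout.

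Pf4 and Ppbp, which encode the platelet granule chemokines platelet factor 4 and pro-platelet basic protein, did not separate the genotypes. Pf4 was at 3.01, 3.35 and 0.275 CPM in WT and at 1.48, 1.94 and 1.38 CPM in Nfkb2-/- BMDCs (log2 fold change -0.47 ± 0.74, edgeR adjusted p = 0.781). Ppbp was at 5.79, 3.97 and 0.344 CPM in WT and at 3.52, 4.58 and 3.48 CPM in the knockout (log2 fold change 0.19 ± 0.76, edgeR adjusted p = 0.923). In both genes WT replicate 3 was the lowest library, with 8 counts for Pf4 and 10 for Ppbp, and without it the direction of Ppbp turned to -0.34 and the log2 fold change of Pf4 was -0.99 (edgeR adjusted p = 0.176). For Pf4 the value was -0.06 when WT replicate 2, its highest library, was left out and -0.19 when WT replicate 1 was.

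Of 11 megakaryocyte and platelet markers, 9 had enough counts to be tested and none was differentially expressed. Their sum was 16.0, 22.1 and 7.40 CPM in WT and 23.8, 16.6 and 17.5 CPM in Nfkb2-/- BMDCs, and the most abundant, the transcription factor Nfe2, averaged 7.05 CPM. Gp1bb, a subunit of the platelet receptor for von Willebrand factor, was at 0 in 4 libraries and at most at 0.0886 CPM. WT replicate 3 was lowest in this sum, too. Macrophage markers moved in the same way among the WT libraries, with a sum over 12 genes of 1067, 1222 and 177.9 CPM in WT and 633.9, 705.9 and 851.1 CPM in the knockout. The most abundant of them was Mrc1, the mannose receptor, at 224, 262 and 36.0 CPM in WT and 108, 181 and 189 CPM in the knockout, followed by Csf1r, C1qb and Adgre1, and no marker was at 0 in all 6 libraries, although Vsig4 was at 0 in WT. Of these markers 11 were tested and none was differentially expressed. Apoe, the lipid carrier apolipoprotein E, was named after its values were seen and departed from the rest of the list, at 82.3, 56.5 and 3.68 CPM in WT and 2.25, 0.725 and 0.898 CPM in the knockout (log2 fold change -5.21 ± 1.10, edgeR adjusted p = 0.077). The summed monocyte markers were 455.2, 893.7 and 81.05 CPM in WT and 488.5, 774 and 879.1 CPM in Nfkb2-/- BMDCs. The part of these cell types in the levels of Cxcl2, Cxcl3, Pf4 and Ppbp was not tested.

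Relative to the summed macrophage markers, a scale chosen after the values were seen, Pf4 was 2.82, 2.74 and 1.55 per 1000 in WT and 2.33, 2.75 and 1.63 per 1000 in Nfkb2-/- BMDCs, a mean log2 difference of -0.07. WT replicate 3 was still the lowest library for Pf4 on this scale, and the part of the markers in its low level was not tested. Cxcl3 on the same scale was 1.47, 3.25 and 1.16 per 1000 in WT and 9.79, 12.1 and 8.40 per 1000 in the knockout, a mean log2 difference of 2.50 without overlap. Cxcl2 overlapped on this scale (3.09, 10.3 and 4.26 against 8.44, 11.5 and 8.40 per 1000), as did Ppbp, Cxcl1, Cxcl9 and Cxcl10. Of the 8 members, only Cxcl3 had no overlap between the genotypes on this scale, in which Apoe is included in the sum. Relative to the summed mature dendritic cell markers, the genotypes did not overlap in Cxcl1, Cxcl3, Cxcl9, Cxcl10 and Cxcl16, of which Cxcl1 overlapped in CPM. That sum was itself 11570, 8764 and 16680 CPM in WT and 8860, 8805 and 8287 CPM in the knockout. Dividing by it shifts every gene of a library alike. The share of all genes without overlap was not computed on either scale, so these counts are not a result about the members.

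**Figure D3:**
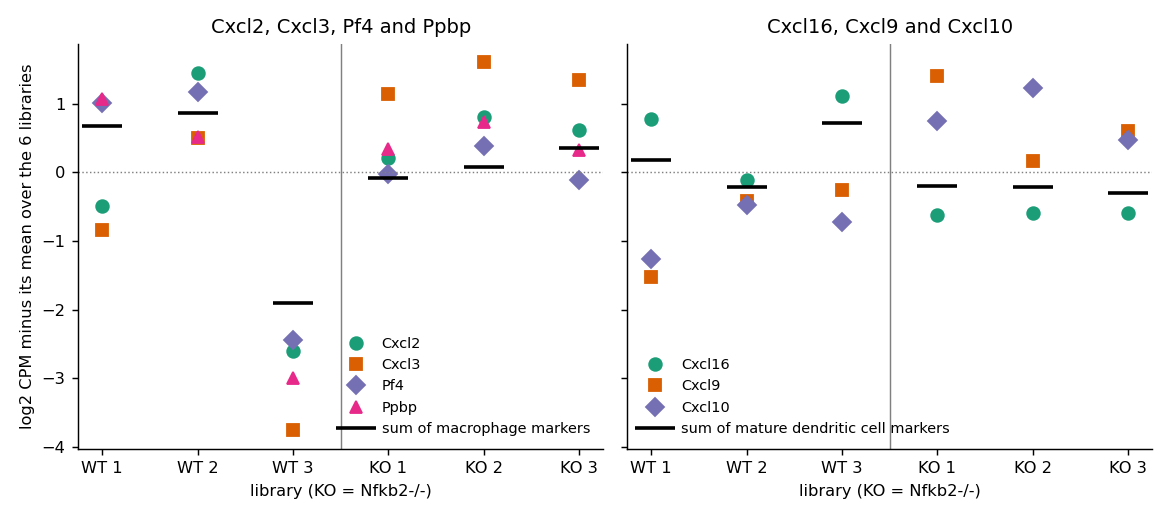
Log2 CPM of CXC ligands in each library, minus the mean over the 6 libraries, beside the summed macrophage markers (left) and mature dendritic cell markers (right), drawn as black bars. WT replicate 3 is lowest in Cxcl2, Cxcl3, Pf4, Ppbp and the macrophage markers and highest in Cxcl16 and the mature dendritic cell markers, while the 3 Nfkb2-/- libraries of Cxcl16 are nearly level.

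The interferon-induced ligands Cxcl9 and Cxcl10 were both low and both higher in the knockout. Cxcl10 was at 0.783, 1.35 and 1.14 CPM in WT, or 33 to 44 counts, and at 3.16, 4.42 and 2.62 CPM in Nfkb2-/- BMDCs, or 107 to 140 counts. All knockout libraries lay above all WT libraries, and the log2 fold change was 1.64 ± 0.34, or 3.11-fold higher, with an edgeR adjusted p of 0.0723. DESeq2 gave an adjusted p of 0.00258, and edgeR without WT replicate 2 gave 0.0499 at a log2 fold change of 1.83. With any other library left out, Cxcl10 did not pass (edgeR adjusted p between 0.111 and 0.305). Cxcl10 lies within Art3 on the opposite strand, with 133 shared exonic bases. Art3 had at most 58 counts in a library, which is more than the 33 to 44 counts of Cxcl10 in WT. The use of strand in counting is not given, and the part of Art3 reads in the Cxcl10 counts was not tested. The genes most like Cxcl10 over the 6 libraries were Smdt1, a subunit of the mitochondrial calcium uniporter, Tmem177 and Cdkl2, with log2 fold changes of 0.84, 1.27 and 0.93, none of which passed.

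Cxcl9 was at 0.285, 0.615 and 0.688 CPM in WT and at 2.19, 0.923 and 1.25 CPM in Nfkb2-/- BMDCs. The genotypes did not overlap, but WT replicate 3 and Nfkb2-/- replicate 2 were close, at 20 and 28 counts. The log2 fold change was 1.46 ± 0.55 (edgeR adjusted p = 0.234). The highest value came from Nfkb2-/- replicate 1, the library that stood apart, and without it the log2 fold change was 1.05. Summed lymphocyte markers were 5.44 CPM in this library and between 0.486 and 1.07 CPM in the other 5, and all 7 of these markers had a count in some library. Their part in the level of Cxcl9 was not tested. Transcripts of the 2 interferons listed, Ifng and Ifnb1, were at or near 0, and other interferon genes were not listed. Ifng reached at most 0.148 CPM, and Ifnb1 had no count in WT and at most 0.198 CPM in the knockout, and both were too low to be tested.

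Of 15 interferon response genes, 1 was differentially expressed, against 1.14% of all genes tested. Irf1, a transcription factor induced by interferon-γ, was at 24.4, 19.4 and 29.9 CPM in WT and fell to 10.7, 10.8 and 11.2 CPM in Nfkb2-/- BMDCs (log2 fold change -1.17 ± 0.19, edgeR adjusted p = 0.0461). It passed under 8 of 14 alternatives, and its adjusted p rose to 0.0848 with the replicate block, to 0.051 without WT replicate 3, to 0.202 without WT replicate 1 and to between 0.0945 and 0.222 without any single Nfkb2-/- replicate. Its direction was opposite to that of Cxcl9 and Cxcl10. The median log2 fold change of the 15 genes was 0.39, with 13 above and 2 below 0. The genotypes did not overlap in 7 of them, 5 higher and 2 lower in the knockout, against 12.7% and 12.0% of all genes tested. Among the higher, Isg15, a ubiquitin-like protein chosen after its values were seen, was at 1.23, 0.923 and 0.551 CPM in WT and at 4.11, 3.96 and 2.54 CPM in the knockout (log2 fold change 1.95 ± 0.38, edgeR adjusted p = 0.0625). Among the most abundant, Gbp2, an interferon-induced GTPase, was at 137, 182 and 196 CPM in WT and at 274, 347 and 285 CPM in the knockout, and Mx1, an antiviral GTPase, was at 546, 405 and 729 CPM in WT and at 354, 291 and 317 CPM in the knockout. These genes separated the genotypes in opposite directions, and neither passed (edgeR adjusted p = 0.094 and 0.149). Gbp5, another interferon-induced GTPase, overlapped between the genotypes.

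The remaining CXC ligands were scarce. Cxcl5, another neutrophil attractant, was at 0.474, 0.492 and 0 CPM in WT and at 1.51, 0.989 and 0.187 CPM in Nfkb2-/- BMDCs. Cxcl11, the third Cxcr3 ligand, was at 0.142, 0.123 and 0.206 CPM in WT and at 0.502, 0.396 and 0.168 CPM in the knockout. GENCODE M21 lists Cxcl11 as a polymorphic pseudogene. Cxcl12, the stromal ligand of Cxcr4, lay between 0.619 and 1.23 CPM in WT and between 0.917 and 2.27 CPM in the knockout. Each of these overlapped between the genotypes, as did Cxcl14, and none of the 4 that were tested was differentially expressed. Cxcl13, Cxcl15 and Cxcl17 had at most 14 counts in a library and were not tested.

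Of 8 genes for CXC receptors and atypical receptors, 5 were tested and none was differentially expressed in the main test, although 4 were higher in all knockout libraries, as were 12.7% of all genes tested. Cxcr2, the receptor for the neutrophil attractants, was at 4.41, 12.0 and 1.31 CPM in WT and at 93.1, 91.5 and 65.1 CPM in Nfkb2-/- BMDCs. The lowest knockout library was thus far above the highest WT library, with a log2 fold change of 3.82 ± 0.71 and an edgeR adjusted p of 0.0568. It passed under 7 of 14 alternatives, DESeq2 and limma voom among them, and its log2 fold change ranged from 3.36 to 4.84 over all 14. Among neutrophil markers, none of 9 tested was differentially expressed and 8 of the 9 had a log2 fold change below 0. The sum of all 10 listed was 215.1, 359.5 and 90.79 CPM in WT and 138.3, 144.3 and 176.2 CPM in the knockout, with S100a8 the most abundant and none at 0 in all libraries.

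Cxcr4, the receptor of Cxcl12, was the most abundant receptor per length and was at 145, 83.9 and 196 CPM in WT and at 103, 92.7 and 86.1 CPM in Nfkb2-/- BMDCs. The genotypes overlapped, and WT replicate 2 was again the lowest of WT (log2 fold change -0.60 ± 0.29, edgeR adjusted p = 0.360). Cxcr5, the receptor of Cxcl13, and Ackr1, a decoy receptor, were at or below 1.77 CPM in every library, both higher in all knockout libraries and neither past the threshold. Cxcr3, the receptor of Cxcl9 and Cxcl10, had at most 24 counts in a library, and Cxcr1 and Ackr3 were as scarce, so that none of these 3 was tested.

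**Figure D4:**
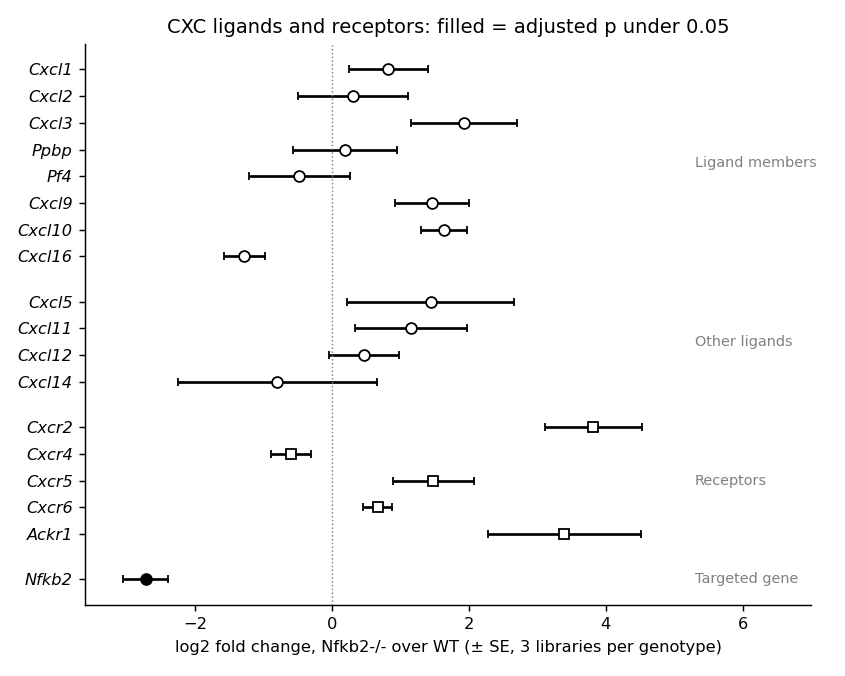
Log2 fold changes of Nfkb2-/- over WT with their standard errors for the CXC ligand genes, the other ligands and receptors that were tested, and the targeted gene, with filled symbols for adjusted p under 0.05. Nfkb2 at -2.72 is the only filled symbol; Cxcr2 at 3.82 lies farthest to the right and Cxcl16 at -1.28 farthest to the left among ligands.

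Over the alternative tests, normalizations, filters and left-out libraries, the direction of Cxcl3, Cxcl9, Cxcl10 and Cxcl16 stayed the same in every fit that gave a value. The log2 fold change of Cxcl16 ranged from -1.553 to -1.004 over 14 alternatives and that of Cxcl10 from 1.37 to 1.83, and each passed in 3 of the 14. Cxcl9 ranged from 1.05 to 1.70 and passed in none, and Cxcl3 ranged from 1.41 to 2.99 over 13 alternatives and passed in 1, without a filter on low counts. In that fit the SE of Cxcl3 was 0.33, against 0.77 in the main fit, and 1625 genes were called, against 248.

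**Figure D5:**
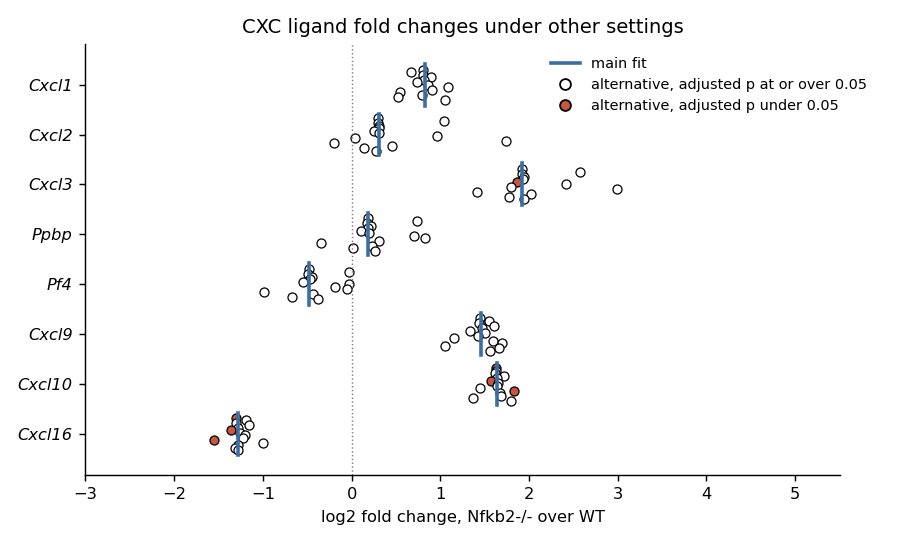
Log2 fold change of each CXC ligand gene under the alternatives, as circles filled red where the adjusted p-value was under 0.05, with the main value as a blue line. Cxcl16 stays between -1.553 and -1.004 and Cxcl10 between 1.37 and 1.83, while Cxcl2 and Ppbp each have a circle below 0.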

How the data were processed

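BMDC libraries of 2 genotypes were grouped by their sample labels. The authors deposited the number of reads counted on each gene as whole-number counts, without normalization. The submitters' processing notes name HISAT2 and the builds GRCm38 and mm10, whereas the counting tool, annotation and use of strand are not given in the sources used here, so that counts of overlapping or similar genes are uncertain. A deposited table with the same values was not used. Names, positions and union exon lengths came from GENCODE M21, in which 52073 of 56748 IDs have a name. The other IDs, with 1.01% to 1.75% of counts, were left out of library sizes and tests. Genes that reached 50 counts when the 6 libraries were summed were compared with edgeR 4.0.16 (R 4.3.3; TMM, glmQLFit and glmQLFTest, no covariates, Benjamini-Hochberg adjustment over all 21849 genes), after testing on simulated data. The SE given is the absolute log2 fold change over the root of F. DESeq2 1.42.0, limma 3.58.1 (voom), other normalizations and filters, a replicate block and each library left out in turn were alternatives. The named genes were all members, the other CXC ligands and receptors, the targeted gene, up to 4 of the most abundant and 5 of the differentially expressed genes of each list, and the 3 genes with the highest Pearson r of log2 CPM for the 3 most abundant members and the 2 with the smallest p. Outside this rule, Ccl3, Tnf, Isg15, Gp1bb, Vsig4, Apoe, Ciita, Flt3, Cd209a, Zbtb46, Cd80 and Cd86 were named after their values were seen. Members and lists were chosen with earlier results of these data known. Markers of mast cells and basophils and of stromal and endothelial cells were also listed: of the former Cpa3 was called, lower in the knockout, and of the latter none. RefSeq promoters (GRCm38.p6) were matched by symbol for 7 of the 8 members. No library was left out of the main comparison. Total counts per library bound the precision of scarce transcripts. Some genes of the lists are not reported here.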

Additional observations from a re-analysis of the deposited data

How the results depend on the processing

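With 3 libraries per genotype, calls depended on the setting more than the directions did. Over 109 repeats of the 8 members' log2 fold changes under the alternatives, the direction and the side of the threshold stayed as reported in 100, 7 passed the threshold in addition and 2 reversed, both without WT replicate 3: with a library left out, Cxcl2 ranged from -0.20 to 1.74 and Ppbp from -0.34 to 0.83. Members called numbered 0 with edgeR, 2 with DESeq2 (Cxcl10 and Cxcl16), 3 with no filter beyond 1 count (Cxcl3 as well) and from 0 to 2 with a library left out, the 2 being Cxcl10 and Cxcl16 without WT replicate 2. Genes called numbered 248, against 1878 with DESeq2, 488 with limma voom, 397 with filterByExpr, 1625 with no filter beyond 1 count, 459 with at least 10 counts in every library and from 0 to 1248 with a library left out: 0 without WT replicate 1 or any single Nfkb2-/- replicate, 1248 without WT replicate 2 and 270 without WT replicate 3. The cause was not tested. Cxcl1, Cxcl3 and Pf4 had no value under the filter of 10 counts in every library. Relative to summed marker levels, scales chosen after seeing the data, 10 of 16 values stayed within their standard error, 1 reversed and 5 moved further. All 6 were relative to mature dendritic cell markers: Pf4 reversed to 0.63, and Cxcl2 moved to 1.56, Cxcl3 to 3.197, Cxcl10 to 2.10, Ppbp to 1.40 and Cxcl16 to -0.73. These values are differences in mean log2 ratio and not edgeR fits. The scale and the way of estimating thus changed at once, and their parts in the moves were not separated. The replicate block called 0 members and 0 genes; same-numbered libraries deviated together with correlations of 0.262, 0.148 and 0.0224, not all libraries correlated best with their own number, and the numbers were not taken as pairs. Depth limits Cxcl1, Cxcl9 and the scarce ligands, with fewer than 40 counts in several libraries.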
